A study of Mus musculus with 2 samples.

Results

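Proliferating T cells of the mouse spleen were described in a library from a conditional Prmt5 knockout (CKO) and in a control library. A cell counted as proliferating when it held at least 1 transcript, counted as a unique molecular identifier (UMI), of Cd3e and of Mki67, at least 1 of Top2a, Birc5 or Cdk1, and none of Cd79a. Only barcodes with 500 or more genes, and with less than 10% of their UMIs mitochondrial, were considered. The cells were therefore chosen by the measured counts of 6 genes, and the values of those genes in them are a description. The rule found 225 cells, 143 in the CKO library and 82 in the control library. They were part of 15303 deposited barcodes, of which 14372 passed the cell filter and 13534 were T cells by their UMIs (Cd3e present, Cd79a absent).

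Both libraries came from CD3+ T cells sorted from spleens of C57BL/6 mice and were read with 10x Genomics single-cell chemistry, which counts the 3′ ends of transcripts. The design text gives 3 mice per group, but the cells are not assigned to mice, so each group is 1 library. The 2 groups were taken from the sample titles, Prmt5-CKO (CRE) and Control (WT), because the genotype field reads CD4-Cre+ PRMT5fl/fl for both. The field therefore does not say which alleles or Cre the control mice carried, and the age of the mice is not given. Cre driven by Cd4 sequences acts in T cells from the thymus onwards, in the precursors of both CD4 and CD8 cells. No test between the conditions was possible: genotype and library cannot be told apart, and every interval below is a 95% exact interval that covers counting error only.

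A dividing cell copies its DNA in S phase and separates the copies in mitosis (M), with gap phases between them. S phase draws on helicase and polymerase subunits, enzymes that make deoxynucleotides, and a burst of replication-dependent histones. Entry into mitosis depends on Cdk1 bound to B-type cyclins, and chromosome separation on condensins, kinetochores, the spindle and the chromosomal passenger complex. Few T cells in a resting spleen divide; those that do include activated effector cells and regulatory T cells. PRMT5 is the main enzyme that places symmetric dimethylarginine marks on proteins, among them histones and splicing factors.

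The libraries were of similar depth, with 52387620 and 48273424 UMIs and medians of 5966 and 6054 UMIs per barcode in the CKO and the control library. They shared 11 barcodes, and 1 control member was among them. The libraries differed in the mitochondrial share of UMIs, whose median was 4.33% in other T cells of the CKO library and 5.09% in those of the control library. Other T cells here means the 7003 and 6306 T cells outside the rule. Prmt5 itself, on chromosome 14 (54507187 to 54517525, mm10), gave 23 UMIs in 18 of the 143 CKO members and 40 UMIs in 26 of the 82 control members. Its level was 9.24 and 24.5 UMIs per 1000000 (CPM), a log2 ratio of -1.40 (interval -2.21 to -0.63). Outside the rule it was 4.61 and 14.7 CPM. The library titled CKO thus held less Prmt5 RNA in both sets of cells. Which part of the gene was removed is not given in the sources used here, so a 3′ count cannot show the state of the allele in a single cell.

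The genes of the rule encode parts of the division machinery. Mki67 (chromosome 7, 135689784 to 135716361) encodes Ki-67, a coat protein of mitotic chromosomes. Top2a (chromosome 11, 98992943 to 99024189) encodes the topoisomerase that untangles sister DNA. Birc5 (chromosome 11, 117849251 to 117855743) encodes survivin, a chromosomal passenger protein, and Cdk1 (chromosome 10, 69335146 to 69352938) the mitotic kinase. In CKO members Mki67 ranged from 1 to 63 UMIs per cell with a median of 6, and in control members from 1 to 87 with a median of 6.5. Of the CKO members 88 held all of Top2a, Birc5 and Cdk1, 31 held 2 of them and 24 held 1. Of the control members 54 held all of them, 11 held 2 and 17 held 1.

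Stmn1 and Pclaf were not used by the rule and served as a check of the label. Stmn1 encodes stathmin, which destabilises microtubules, and Pclaf a partner of the replication clamp PCNA. Stmn1 was present in 92.3% of CKO members and 86.6% of control members, against 21.2% and 23.5% of other T cells. Pclaf was present in 86.7% and 82.9% of members against 0.971% and 0.888% of other T cells. The members were deeper cells, and among other T cells within the middle 50% of the members' depths Stmn1 was found in 39.7% of the CKO cells and Pclaf in 5.97% of them. The label therefore held for the set as a whole. It held less well at the edge of the rule. Members with only 1 of the 3 genes carried Pclaf in 50% of the CKO cells and 35.3% of the control cells. Members with 2 or 3 carried it in 94.1% and 95.4%. Just outside the rule, the 43 CKO and 58 control T cells with Mki67 but none of the 3 genes carried Pclaf in 2.33% and 0% of cells. The 19 and 10 T cells with 2 or 3 of them but no Mki67 carried it in 42.1% and 60% of cells. The rule thus took in some cells with little other sign of division and missed a few that had such signs.

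Genes switched on late in the cycle often carry the cell cycle homology region, the letters TTTGAA on either strand, near their start. RefSeq start regions (GRCm38.p6, 250 bases before to 50 after the start) were searched for it, a motif picked after the gene values were known. Of 27025 genes with a start region, 20.2% held these letters. Among the genes of G2 and M phase used below it was 50 of 79 genes with a start region (63.3%), and among the S phase genes 9 of 66 (13.6%). Of the rule and marker genes Mki67, Top2a and Cdk1 held it, Birc5 and Pclaf did not, and Stmn1 had no entry. The 30 bases around the match nearest to each start are shown because these 3 genes define the cells. Each is read 5′ to 3′ on the gene's strand, the minus strand in each case, and capitals mark the motif or its reverse complement.
Mki67, chr7:135716460-135716489: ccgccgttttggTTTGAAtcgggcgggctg
Top2a, chr11:99024195-99024224: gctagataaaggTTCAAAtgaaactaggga
Cdk1, chr10:69352913-69352942: ctttaccgcggcgagTTTGAAactgctggc
The matches began 98, 23 and 15 bases before the RefSeq start of Mki67, Top2a and Cdk1. For Mki67 and Cdk1 this start differs from the end of the gene span given above, and the Cdk1 match lies inside that span. A match is a description of the letters, and no binding was measured here.

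Proliferating cells made up 2.0% of T cells in the CKO library (143 of 7146, interval 1.69 to 2.35%) and 1.28% in the control library (82 of 6388, 1.02 to 1.59%). The ratio was 1.56 (interval 1.18 to 2.07). Over all cells that passed the filter the shares were 1.87% and 1.22%. The wider set with any Mki67 UMI was closer, at 2.60% and 2.19% of T cells, a ratio of 1.19 (0.949 to 1.49). The difference between libraries depended on the mitochondrial share. Among T cells with under 5% mitochondrial UMIs the proliferating share was 2.01% (108 of 5386) and 1.74% (52 of 2980). Among T cells with 5 to 10% it was 1.99% (35 of 1760) and 0.880% (30 of 3408). The control library thus had more T cells in the upper band and fewer proliferating cells in it. With the stricter filter of 1000 genes and 5% the ratio was 1.15 (0.821 to 1.64), and the interval then held 1.

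**Figure D1:**
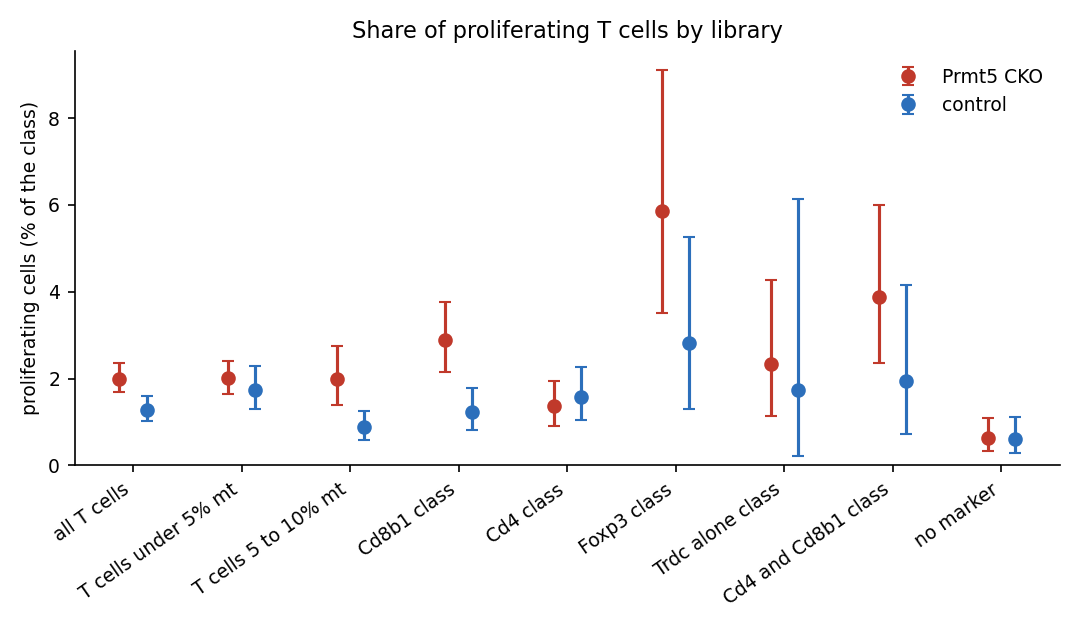
Share of proliferating T cells (percent of the named class, vertical axis) in the Prmt5 CKO library (red) and the control library (blue); points are shares and bars 95% exact binomial intervals for counting error, with no replicate libraries. The red point is above the blue one in every set shown but the Cd4 class (1.36% and 1.58%). The intervals are apart for all T cells, for cells with 5 to 10% mitochondrial (mt) UMIs and for the Cd8b1 class. They overlap in the other sets.

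These shares rose with the depth of the cell, and the rule needs at least 2 scarce transcripts in a cell. Whether the rise came from detection or from more RNA in dividing cells was not tested. Members had a median of 15804 UMIs in the CKO library (range 5222 to 72889) and 18069 in the control library (4626 to 55113). Other T cells had medians of 6063 and 6296 UMIs. Below 5000 UMIs none of 2051 CKO T cells and 1 of 1456 control T cells met the rule. Taken as 3 counts of the total, a count of 0 there allows a share of up to 0.146%, and the exact interval reaches 0.180%. From 10000 to 15000 UMIs the shares were 7.41% and 3.45%, and from 15000 to 20000 they were 23.1% and 13.1%. Above 20000 UMIs they were 45.5% and 46.7%. The CKO share was thus the higher one in the middle bins and no higher in the deepest. Every cell that passed the filter was also thinned at random to 2000 UMIs. The share was then taken over cells that still held Cd3e after thinning, with Cd79a read at full depth. Of these, 46 of 5173 CKO cells (0.889%) and 24 of 4734 control cells (0.507%) met the rule, a ratio of 1.75 (1.05 to 3.00). T cells that lost Cd3e in the draw are not in these totals. Of all cells that passed the filter, 59 and 38 were shallower than 2000 UMIs and were left out. The share expected over all possible draws was 0.863% and 0.558%, a ratio of 1.55. At 1000 UMIs 11 and 13 cells were left, and the ratio in the draw was 0.776 (0.315 to 1.88) against 1.42 expected over all draws.

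**Figure D2:**
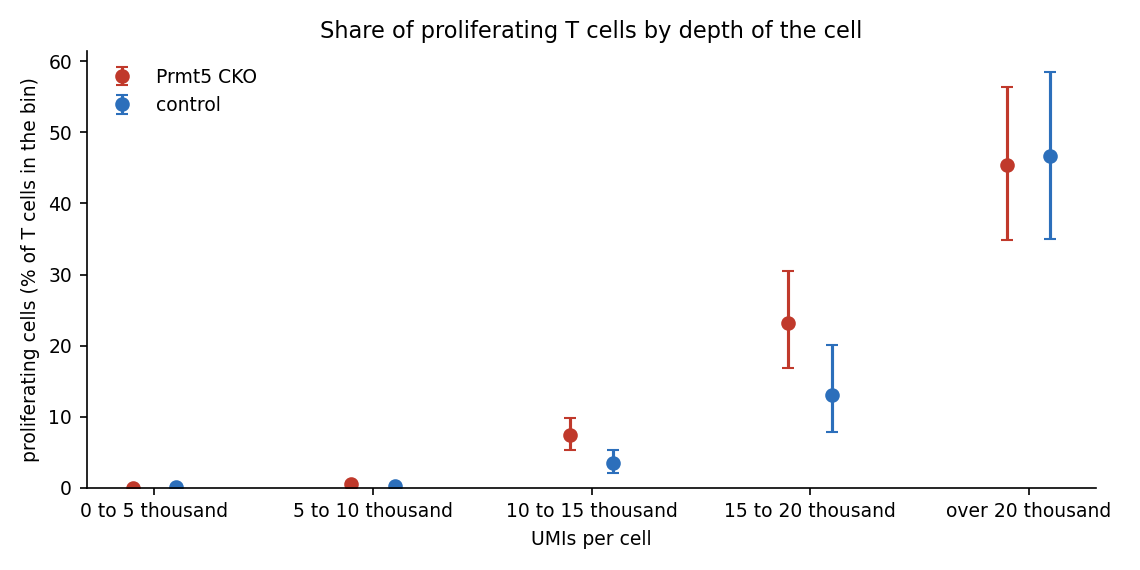
Share of proliferating cells (percent of T cells in the bin) by the number of UMIs in the cell, for the Prmt5 CKO library (red) and the control library (blue), with 95% exact binomial intervals. The share climbs with depth in both libraries and reaches 45.5% and 46.7% above 20000 UMIs.

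A pair of cells caught in 1 droplet could also look deep. The doublet caller Scrublet marked no cell in either library and so gave no usable calls. By its scores, 3 of the 143 CKO members (2.10%) and 4 of the 82 control members (4.88%) reached the limit of the highest 6% of their library. With tied scores, 525 of 7660 CKO cells and 470 of 6712 control cells that passed the filter reached it. A member with both Cd4 and Cd8b1 UMIs was found 19 times in the CKO library (13.3%) and 6 times in the control library (7.32%). Other T cells of the members' depth held both in 21.2% of 486 cells and 24.5% of 286 cells. The intervals of members and other T cells overlapped in the CKO library (8.19 to 19.97% and 17.6 to 25.1%). They did not overlap in the control library (2.73 to 15.2% and 19.6 to 29.9%), where members held both less often. Neither difference was tested. A further 5 CKO and 4 control cells met the rule but for a Cd79a UMI. The share of doublets among the members was not measured in any other way.

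The lineage of each member was read from the presence of Cd4, the co-receptor of helper cells, Cd8b1, a chain of the CD8 co-receptor, Foxp3, the regulatory T cell factor, and Trdc, the constant part of the delta receptor chain. The Cd4 class (Cd4 without Cd8b1 or Foxp3) held 30 CKO members (21.0%, interval 14.6 to 28.6%) and 28 control members (34.1%, 24.0 to 45.4%). The Cd8b1 class (without Cd4 or Foxp3) held 51 (35.7%) and 27 (32.9%). Foxp3 without Cd8b1 was found in 18 (12.6%) and 9 (11.0%) members, and Trdc with none of the others in 10 (6.99%) and 2 (2.44%). Foxp3 together with Cd8b1 but without Cd4 was found in 3 and 0 members, and 12 and 10 members held none of the 4 genes. Members with both Cd4 and Cd8b1 were kept as their own class, whether or not they held Foxp3. Any Foxp3 UMI was found in 26 CKO and 9 control members, so some CKO members held Foxp3 with both co-receptor genes. The intervals of the Cd4 class overlapped between the libraries, as did those of the Cd8b1 class. With Mki67 at 2 UMIs or more the Cd4 class was 18.3% (11.7 to 26.5%) of 115 CKO members and 42.4% (29.6 to 55.9%) of 59 control members. These intervals did not overlap, but those of every other setting tried did. With at least 2 of Top2a, Birc5 and Cdk1 they were 13.4 to 28.5% and 25.3 to 49.8%.

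Among other T cells the order was different. The Cd8b1 class was 24.6% of other T cells in the CKO library and 34.2% in the control library, and the Cd4 class 31.1% and 27.7%. Foxp3 cells were 4.13% and 4.93%. Within the Cd8b1 class 2.88% of the CKO T cells (51 of 1771) and 1.24% of the control T cells (27 of 2185) were proliferating, a ratio of 2.33 (1.43 to 3.87). At 2000 UMIs per cell, among cells that still held Cd3e and with classes read at full depth, the shares were 1.27% and 0.442%. The ratio was 2.88 (1.12 to 8.27). With under 5% mitochondrial UMIs and at least 1000 genes the ratio was 1.29 (0.715 to 2.39), and the interval then held 1. Within the Cd4 class the shares were 1.36% and 1.58%, a ratio of 0.861 (0.497 to 1.5). Within the Foxp3 class the shares were 5.86% (18 of 307) and 2.81% (9 of 320), a ratio of 2.08 (0.889 to 5.27). Cells with Trdc alone gave 2.34% (10 of 427) and 1.74% (2 of 115). Since the classes need a UMI of their marker and the members are deep, these shares compare the libraries and not the classes.

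**Figure D3:**
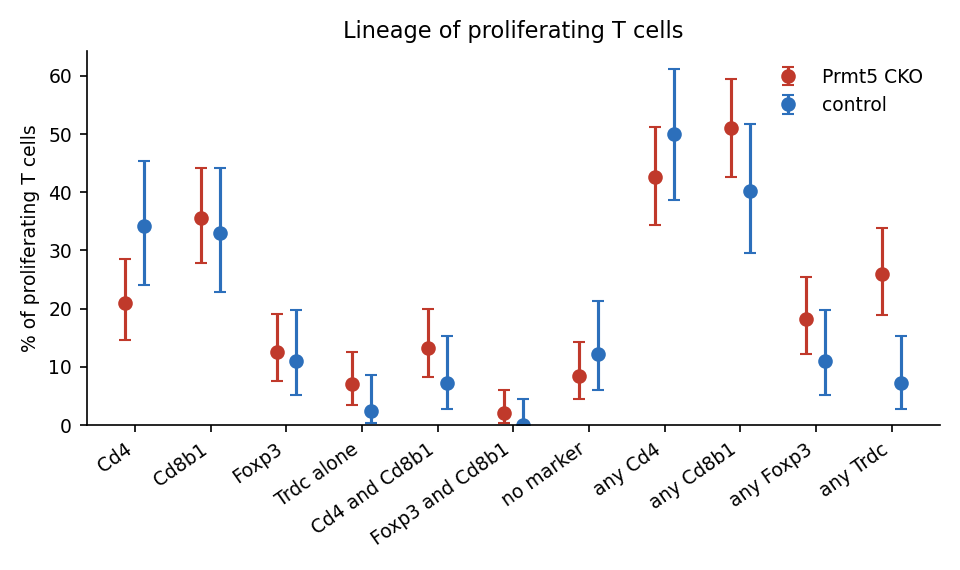
Lineage classes (percent of the 143 CKO members in red and of the 82 control members in blue, with 95% exact binomial intervals); the columns from "any Cd4" on count every member with a UMI of that gene and overlap with the classes. The Cd4 class is the larger in the control library (34.1% against 21.0%), and any Trdc the larger in the CKO library (25.9% against 7.32%).

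Trdc was found in 37 CKO members (25.9%) and 6 control members (7.32%), and in 11.4% and 3.81% of other T cells. In B cells, which do not carry a T cell receptor, 1 of 51 CKO cells and 0 of 49 control cells held a Trdc UMI. The median depths of these B cells were 4009 and 4236 UMIs. In other T cells of the members' depth the shares were 23.9% and 6.64%, close to those of the members. In the Cd8b1 class 13 of 51 CKO members and 2 of 27 control members held Trdc. Trdc was thus higher in the CKO library in dividing and other T cells alike, and it was also found in cells with Cd8b1. When members were thinned to 5000 UMIs the Cd4 class was 11.2% of 143 CKO members and 24.7% of 81 control members, while the Cd8b1 class took 39.2% and 33.3%. The share with none of the 4 genes was 25.9% and 28.4% at that depth, against 8.39% and 12.2% at full depth.

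Gene levels were compared as UMIs summed over the members of a library, as CPM. Of 4718 genes with at least 100 UMIs and a mean of at least 20 CPM, 165 were at least 1.5-fold higher in the CKO members (3.50%) and 86 at least 1.5-fold lower (1.82%). The median log2 ratio over these genes was 0.01, and 51.0% of them were on the higher side. These shares are the background against which the counts of each gene list are read. Because lineage classes took different shares of the members in the 2 libraries, a difference in level may come with the makeup of the members; its part was not tested, but values within the Cd4 and the Cd8b1 class are given where they differ. In the same sense more RNA per cell and more cells with the RNA cannot be told apart in a sum.

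The rule and marker genes differed little between the libraries. Top2a stood at 711 CPM in CKO members and 846 CPM in control members, a log2 ratio of -0.25 (-0.35 to -0.15). Mki67 stood at 477 and 545 CPM (-0.19), Cdk1 at 178 and 193 CPM (-0.12) and Pclaf at 766 and 883 CPM (-0.20). Birc5 stood at 556 and 503 CPM (0.14) and Stmn1 at 1618 and 1449 CPM (0.16). None of these 6 was past 1.5-fold.

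S phase genes were mostly on the lower side over all CKO members, but less so within the classes. Of 71 measured genes of licensing, replication forks, nucleotide synthesis and S phase repair, 55 were lower and 16 higher, with a median log2 ratio of -0.17 and none past 1.5-fold. Their summed level was 7730 CPM in CKO members and 8617 CPM in control members, a ratio of 0.897 (0.878 to 0.917). Within the Cd4 class 29 of 54 measured genes were lower (median -0.02), and the ratio of the sums was 0.984 (0.945 to 1.02). Within the Cd8b1 class 38 of 57 were lower (median -0.09), with a ratio of 0.965 (0.929 to 1.0). Both class intervals held 1, so the difference over all members was not one that either class showed beyond counting error. Pcna, the replication clamp, stood at 281 and 342 CPM (log2 ratio -0.29). Mcm6, a subunit of the replicative helicase, stood at 190 and 253 CPM (-0.41), and Fen1, the flap nuclease of lagging strand synthesis, at 79.5 and 113 CPM (-0.51). Of 16 measured genes of nucleotide synthesis 14 were lower, with Rrm1, the large subunit of ribonucleotide reductase, at 136 and 187 CPM (-0.46). Its partner Rrm2 stood at 327 and 348 CPM (-0.09, interval -0.25 to 0.07). The S phase genes of other T cells summed to 1532 and 1461 CPM, the opposite order.

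Replication-dependent histone genes had the lowest median of the cycle lists, -0.40 over 22 measured genes, of which 16 were lower and 6 higher. They are mostly made without a poly(A) tail, so 3′ capture reads only part of their RNA, and near-identical copies can share reads. The 4 past 1.5-fold lower were Hist1h2ab, Hist1h3c, Hist1h3e and Hist1h2bj (4 of 22, against the background of 1.82%). Hist1h2ab, an H2A gene, gave 164 UMIs in 61 CKO members and 184 UMIs in 42 control members, 65.9 and 113 CPM (-0.77, interval -1.09 to -0.46). Hist1h2ap, the most abundant, stood at 884 and 1123 CPM (-0.34). The list was lower in the Cd4 class, where 15 of 15 measured genes were on the lower side (median -0.61), than in the Cd8b1 class, where 9 of 13 were (median -0.16).

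Genes of G2 and M phase were split. Of 86 measured genes 40 were higher and 46 lower, with a median of -0.01 and 2 past 1.5-fold higher. The tubulins and Stmn1, which also serve cells outside mitosis, and cohesin genes were left out after their values were seen. The 2 were Kif14, a motor of the central spindle, at 29.7 and 16.5 CPM (log2 ratio 0.85, interval 0.20 to 1.54), and Cenpn, which reads the centromeric nucleosome, at 37.8 and 24.5 CPM (0.63, 0.08 to 1.20). The background of genes past it was 3.50%. Kif23, a motor needed for cytokinesis, stood at 126 and 89.9 CPM (0.49). Aurka, the centrosome kinase, stood at 46.2 and 64.8 CPM (-0.49), and Ncaph, a condensin subunit, at 61.1 and 90.5 CPM (-0.57). Cenpf, a kinetochore protein, stood at 235 and 284 CPM (-0.28). Ube2c, the ubiquitin enzyme of the anaphase-promoting complex, stood at 485 and 459 CPM (0.08). The summed level was 9604 and 9844 CPM, a ratio of 0.976 (0.956 to 0.995). Without the cells over 30000 UMIs it was 1.0, and without the 1 control member whose barcode the libraries share it was 0.998, so no direction was read from it.

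The G2 and M genes lay on opposite sides in the 2 large classes. In the Cd8b1 class 52 of 71 measured genes were higher in CKO members (median 0.25), and their sum was 9584 CPM in CKO and 8176 CPM in control members. In the Cd4 class 66 of 79 were lower (median -0.37), and the sum was 10028 and 12979 CPM. Ube2c stood at 453 and 269 CPM in the Cd8b1 class (log2 ratio 0.75, or 1.32 without 1 control cell) and at 508 and 786 CPM in the Cd4 class (-0.63). Ccnb1, the B-type cyclin, had UMIs in 24 of 51 CKO members and 9 of 27 control members of the Cd8b1 class, and in 12 of 30 and 21 of 28 of the Cd4 class. Each class is 1 set of 27 to 51 cells per library, and the difference between the classes was not tested.

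Single members spread widely over these phases. The S phase genes took 8.16 to 163 of 10000 UMIs in CKO members (median 77.2) and 8.13 to 174 in control members (median 79.8). The G2 and M genes took 0 to 355 (median 81.0) and 6.87 to 332 (median 81.1). The medians were thus close where the sums of S phase genes differed. More UMIs of G2 and M than of S phase genes were found in 80 of 143 CKO members (55.9%, interval 47.4 to 64.2%) and in 36 of 82 control members (43.9%, 33.0 to 55.3%). These ratios rest on 2 gene sets of different abundance and are not a count of cells in a phase. Foxp3-class members had low S phase content in both libraries, with medians of 24.4 and 29.1 of 10000 UMIs. Their G2 and M content differed, with medians of 92.7 in the 18 CKO cells and 14.5 in the 9 control cells. Stmn1 was present in 83.3% and 55.6% of them. These differences were not tested.

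**Figure D4:**
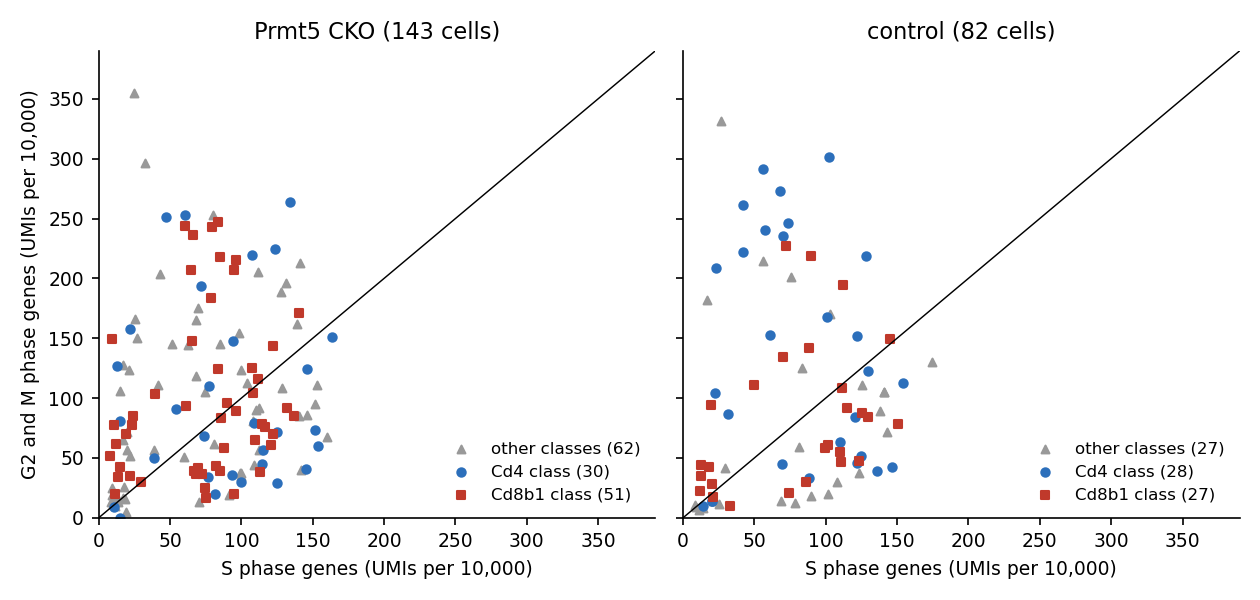
UMIs per 10000 of S phase genes (horizontal axis) and of G2 and M phase genes (vertical axis) in every proliferating cell of the CKO library (left, 143 cells) and the control library (right, 82 cells), by lineage class; the line marks equal content. Cells lie on both sides of the line in both libraries, and many Cd4-class cells of the control library lie high above it.

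Effector and cytotoxic genes were higher in CKO members. Of 25 measured genes 23 were on the higher side, with a median log2 ratio of 0.75, and 15 were past 1.5-fold, against the background of 3.50%. Their summed level was 15352 CPM in CKO and 8980 CPM in control members. The same list summed to 4935 and 3508 CPM in other T cells (median 0.49). Itgb1 and Tbx21 were the 2 on the lower side, at -0.22 and -0.18. The title of the series names Klrg1+CD8+ effector cells, so a list with Klrg1 and its companions is no independent evidence of a direction.

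Gzmb, the granzyme that starts apoptosis in target cells, gave 522 UMIs in 45 of 143 CKO members and 76 UMIs in 9 of 82 control members. Its level was 210 and 46.5 CPM, a log2 ratio of 2.17 (1.82 to 2.54). Of other T cells 3.50% and 1.33% held it. Klrk1, the activating receptor NKG2D, gave 122 UMIs in 17 members and 14 UMIs in 5 (49.0 and 8.56 CPM, log2 ratio 2.52). Klrg1, an inhibitory receptor of terminal effector cells that some regulatory T cells also carry, gave 114 UMIs in 30 members and 25 UMIs in 5 (45.8 and 15.3 CPM, 1.58). Lgals3, galectin-3, stood at 251 and 69.1 CPM (1.86). Ccl5, a chemokine of effector and memory CD8 cells, stood at 2092 and 993 CPM (1.08), and S100a6, a calcium-binding protein, at 1339 and 653 CPM (1.04).

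These genes were not confined to the Cd8b1 class. In the Cd8b1 class 21 of 23 measured list genes were higher in CKO members (median 0.49), and in the Cd4 class 15 of 16 (median 0.86). Gzmb UMIs lay in 19 of 51 CKO members and 4 of 27 control ones in the Cd8b1 class, 206 and 121 CPM (log2 ratio 0.77). A single control cell held 41 of the 66 control UMIs, and without it the ratio was 2.12. It was found in 5 of 30 and 2 of 28 members of the Cd4 class, and in 6 of 18 and 0 of 9 of the Foxp3 class. Klrg1 UMIs lay in 8 of 51 and 3 of 27 members of the Cd8b1 class, 32.2 and 27.4 CPM (0.23, interval -0.75 to 1.26), or 1.23 (-0.02 to 2.68) without the control cell that held 8 of the 15 control UMIs. It was found in 9 of 18 and 2 of 9 members of the Foxp3 class, with 49 and 10 UMIs. The largest share of the Klrg1 UMIs in CKO members thus lay in the Foxp3 class. Ccl5 was higher in the Cd4 class (672 and 82.8 CPM, 3.02) by more than in the Cd8b1 class (3142 and 2535 CPM, 0.31). Gzma, a granzyme, stood at 803 and 424 CPM over all members, in 34 and 10 cells. In the Cd8b1 class Gzma gave 858 UMIs in 14 CKO and 671 UMIs in 7 control members (log2 ratio -0.15). A single control cell held 356 of the 671, and without it the ratio was 0.89, so no direction was read for Gzma in that class.

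The other genes with the highest ratios had mixed roles. Actn2, an actin crosslinker, gave 157 UMIs in 52 CKO members and 14 UMIs in 8 control members (63.1 and 8.56 CPM, log2 ratio 2.88). In other T cells Actn2 was also higher, at 45.3 and 25.8 CPM. Ifitm3, an interferon-induced membrane protein, gave 125 UMIs in 22 cells and 22 in 3 (1.90), with 18.4% of the UMIs from 1 cell. Cxcr6, a homing receptor of resident T cells, stood at 92.4 and 32.4 CPM (1.51) and Ccr9, a gut-homing receptor, at 49.4 and 17.7 CPM (1.48). Ggt1 (1.57), an enzyme of glutathione breakdown, Rom1 (1.47) and Trdc (1.41) followed, and Bbc3, the pro-apoptotic p53 target PUMA, stood at 34.1 and 13.5 CPM (1.34). Ccr9 was on the lower side in other T cells (34.3 and 39.3 CPM), whereas Trdc differed more there than in members (110 and 27.5 CPM).

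**Figure D5:**
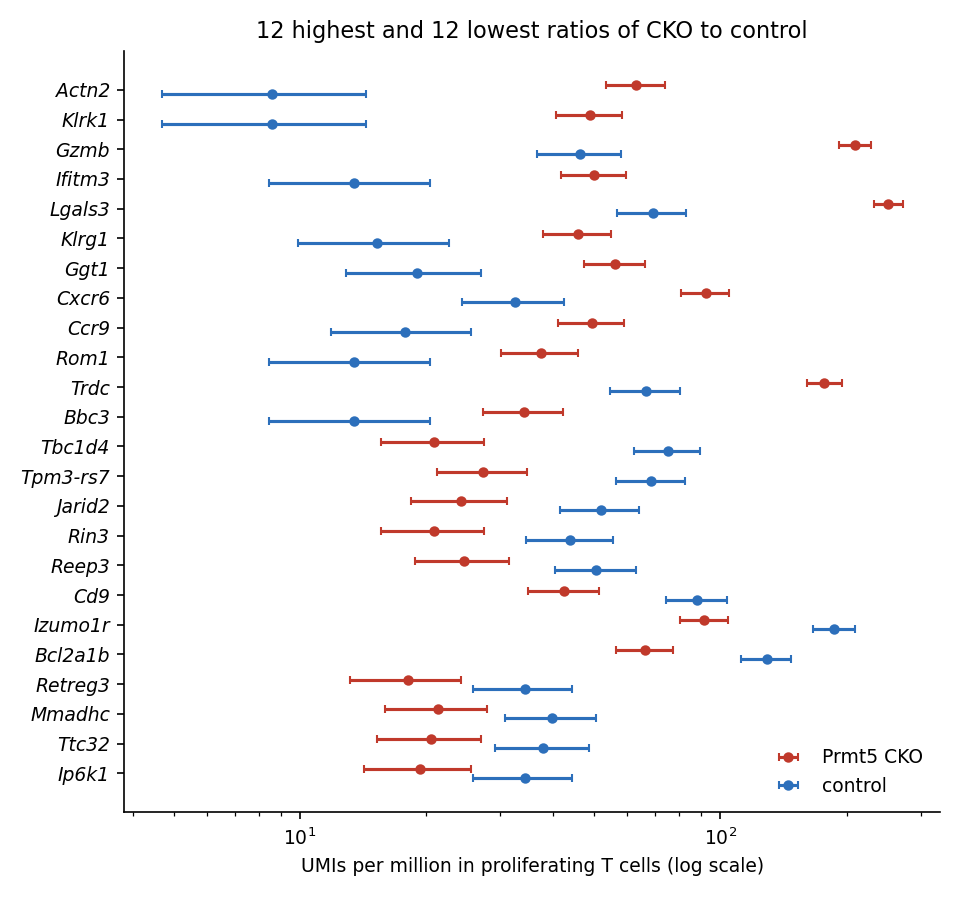
Level of the 24 genes with the highest and lowest ratios (CPM in proliferating T cells, log axis) in CKO members (red) and control members (blue), with 95% exact Poisson intervals for counting error. Gzmb and Lgals3 reach 210 and 251 CPM in CKO members, and Tbc1d4 has the widest gap of the lower genes (20.9 and 75.2).

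The genes with the lowest ratios had mixed roles. Tbc1d4, which controls vesicle traffic of the glucose transporter GLUT4, gave 52 UMIs in 22 CKO members and 123 UMIs in 30 control members (20.9 and 75.2 CPM, log2 ratio -1.85). It was lower in the Cd4 class as well (42.5 and 110 CPM, -1.37), or -0.79 (-1.62 to -0.01) without the control cell with the most Tbc1d4. Izumo1r, the folate receptor FR4 of regulatory and anergic T cells, stood at 91.6 and 187 CPM (-1.03). In the Cd4 class Izumo1r stood at 89.0 and 171 CPM (-0.94). Cd9, a tetraspanin, stood at 42.6 and 88.1 CPM (-1.05), and Jarid2, a partner of Polycomb repressive complex 2, at 24.1 and 52.0 CPM (-1.11). Bcl2a1b, an anti-apoptotic gene with near-identical neighbours that can share its reads, stood at 66.3 and 129 CPM (-0.96). Tpm3-rs7 (-1.33) is a copy of a tropomyosin gene and may share reads with it. Rin3 (-1.08), Reep3 (-1.05), Retreg3 (-0.92), Mmadhc (-0.90), Ttc32 (-0.89) and Ip6k1 (-0.83) completed the 12 lowest.

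The levels of Cd4, Cd8b1 and Foxp3, which set the classes, are given as a description. Cd4 gave 149 UMIs in both libraries, 59.9 and 91.1 CPM (log2 ratio -0.61). Cd8b1 stood at 437 and 331 CPM (0.40) and Cd8a at 160 and 121 CPM (0.40), while in other T cells both were on the lower side in the CKO library (-0.33 and -0.49). All 7 measured genes of the CD8 list were higher in CKO members (median 0.52), against 51.0% of all measured genes. Past 1.5-fold were 3 of the 7, against the background of 3.50%. However, Ccl5, Nkg7 and Gzmk of that list are effector genes as well. Foxp3 gave 103 UMIs in 26 CKO members and 32 UMIs in 9 control members (41.4 and 19.6 CPM, 1.08). In other T cells Foxp3 stood at 19.8 and 19.9 CPM. Of 9 measured regulatory T cell genes 6 were higher and 3 lower: Ikzf2, the factor Helios, stood at 320 and 224 CPM (0.51), and Ctla4, an inhibitory receptor, at 82.0 and 129 CPM (-0.65).

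Among marker lists of other cell types, the neutrophil and progenitor lists were low in the members, while the natural killer list was not. The neutrophil list summed to 2.01 CPM in CKO and 1.22 CPM in control members, with Elane, Mpo, Camp, Ngp, Lcn2 and Retnlg at 0 in both. The progenitor list summed to 8.04 and 4.89 CPM, with Cd34, Gata2 and Cpa3 at 0. Of the B cell genes Ms4a1 and Pax5 were at 0, besides Cd79a, which the rule sets to 0, and the list summed to 313 and 364 CPM. The immunoglobulin gene Igkc, however, was found in 11 of 143 CKO members and 2 of 82 control members. In other T cells of the members' depth Igkc was found in 7.61% and 1.05%. The myeloid list summed to 165 and 184 CPM and the stromal list to 57.1 and 56.9 CPM. The erythroid list summed to 62.3 and 44.0 CPM, with Klf1, Epor and Car1 at 0. Its haemoglobin gene Hbb-bs was found in 14 of 143 CKO members and 1 of 82 control members, and in 1.81% and 0.222% of other T cells. Among other T cells of the members' depth it was found in 3.91% and 0.350%. The natural killer list summed to 1066 and 650 CPM, mostly through Gzma, with Klra4 and Klra8 at 0 in both. Free RNA can give such UMIs, and their part in the differences above was not tested.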

How the data were processed

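The deposited values are raw UMI counts per gene and barcode, made by the authors with Cell Ranger 3.1.0 per the file headers. Per the submitters' processing notes CASAVA 1.8, Seurat 2.3.4 and mm10 are named, with no roles given. Here barcodes with 500 or more genes and less than 10% of UMIs mitochondrial were kept, and the rule of the report was applied to the counts. Shares have exact Clopper-Pearson intervals, levels exact Poisson intervals, and ratios exact conditional intervals (scipy 1.17.1). Genes past 1.5-fold are those with at least 100 UMIs and 20 CPM. Thinning drew UMIs without replacement. Named genes are the 12 highest and 12 lowest ratios with an interval off 0, at least 10 cells and at most 20% of UMIs from 1 cell, leaving out receptor segments, mitochondrial, ribosomal, sex-linked and predicted genes and pseudogenes. The rule genes, markers, Prmt5 and lineage genes were added, with up to 4 genes per list by ratio and 3 by level. The 41 lists and the members were chosen with earlier results of these data known. On simulated counts for the member comparison (4718 genes, 200 of them changed 2-fold), 98.5% of the changed genes passed 1.5-fold, as did 1.15% of the others. These counts were drawn for the sums with counting error only, without spread between cells, classes or mice. The 1.15% is therefore not an error rate for the data. Alternatives cover the cell filters, the rule, depth, scaling and classes; those on the mitochondrial limit alone, the rule in gene levels and the G2 and M set were added after the data were seen. Gene positions are from GENCODE (mm10).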

Additional observations from a re-analysis of the deposited data

Results flagged for a closer look

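For 2 quantities the values of the 2 large lineage classes lay on opposite sides. The difference between the classes was not tested, since each group is 1 library. The ratio of the proliferating share, CKO over control, was 2.33 (1.43 to 3.87) in the Cd8b1 class and 0.861 (0.497 to 1.5) in the Cd4 class. The second interval holds 1, so opposite sides are not shown for the share. With the strict filter of the next section the Cd8b1 ratio was 1.29 (0.715 to 2.39). The median log2 ratio of the G2 and M phase genes was 0.25 in the Cd8b1 class and -0.37 in the Cd4 class.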

How the results depend on the processing

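The ratio of the proliferating share was 1.15 under the strict filter (1000 or more genes, less than 5% of UMIs mitochondrial), and also 1.15 with the mitochondrial limit alone. The other settings gave 1.39 to 1.74. The value of 1.39 (1.04 to 1.87) was found without cells holding Lyz2, Csf1r, C1qa, Hbb-bs, Ms4a1 or Igkc. That setting left 119 CKO and 79 control members. Within the Cd8b1 class the strict filter gave 1.29. In 1 draw of 1000 UMIs per cell (11 and 13 members) the ratio was 0.776, against 1.42 expected over all draws. The Cd4 class was 11.2% of CKO members at 5000 UMIs. Genes past 1.5-fold higher and lower numbered 809 and 537 with at least 20 UMIs and no CPM filter, where 8685 genes were tested. They numbered 64 and 26 in the Cd8b1 class alone, and 55 and 91 in the Cd4 class alone, where more genes were lower than higher, the opposite of the split over all members. Fewer cells and genes enter the class counts, so the bare counts do not compare with those over all members. As shares of the genes tested in each class, the higher counts of both classes were close to the background of 3.50%. The share of lower genes was below the background of 1.82% in the Cd8b1 class and well above it in the Cd4 class. The cause of the split was not tested. The ratio of summed S phase genes was 0.934 without cells with both Cd4 and Cd8b1, 0.921 without cells over 30000 UMIs, 0.868 with Mki67 at 2 UMIs or more, 0.984 in the Cd4 class and 0.965 in the Cd8b1 class, both with intervals that hold 1. That of the G2 and M genes was, in the same order, 1.03, 1.0, 0.904, 0.773 and 1.17. It was 0.949 under the strict filter and 0.998 without shared barcodes. With tubulins, Stmn1 and cohesin it was 0.989. The cause was not tested where none is named.

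Of 1966 values of 141 named genes, 1762 stayed within the main interval and 21 turned to the other side. In the Cd4 class these were Trdc (-1.36), Birc5 (-0.25), Gins4 (0.21), Hmgn1 (0.17), Kif14 (-0.23), Gzmk (-0.52), Ikzf2 (-0.94), Jun (-0.56), Fos (-0.34) and Cd74 (0.45). In the Cd8b1 class they were Mki67 (0.19), Top2a (0.16), Hist1h3e (0.27), Ccnf (0.23), Foxp1 (-0.29), Icos (0.15), Nfkbid (0.98) and Gzma (-0.15). Cd74 was 1.05 under the strict filter and 0.51 without cells holding markers of other types, and Ccl4 was -0.12 as a mean over cells. Single cells set some class values: without the control cell with most UMIs of the gene, Trdc in the Cd4 class was 3.93 (1.19 to 9.34, 13 UMIs against 1), Gzma in the Cd8b1 class 0.89 and Tbc1d4 in the Cd8b1 class 0.043 (3 UMIs against 2). This setting was chosen after the data were seen. No paired analysis was possible because each group is 1 library.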

Other observations

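Genes of the p53 response were mostly on the higher side in CKO members. Of 11 measured genes 9 were higher and 2 lower (Mdm2 at -0.26 and Tap1 at -0.18), with a median log2 ratio of 0.30. Over all measured genes 51.0% were higher. Past 1.5-fold higher were 3 of the 11, against the background of 3.50%. Bax, a pro-apoptotic pore protein, stood at 217 CPM in CKO and 136 CPM in control members (0.68). Ccng1, cyclin G1, stood at 53.4 and 28.1 CPM (0.93). In other T cells the median of the list was 0.25. Cdkn1a, the inhibitor p21, is named after its values were seen and lay under the filter, with 56 UMIs (22.5 CPM) and 5 UMIs (3.06 CPM). In the Cd8b1 class 2 of 6 measured p53 genes were higher (median -0.18), and in the Cd4 class 4 of 6 (median 0.18).

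Receptor signalling genes had no common side: 8 of 22 measured genes were higher and 14 lower. Lck, the first kinase of the T cell receptor, gave 1488 UMIs (598 CPM) in CKO and 621 UMIs (380 CPM) in control members, a log2 ratio of 0.65, and 1100 and 457 CPM in other T cells. The ratio of the libraries was thus smaller in members than in other T cells, by 0.61 on the log2 scale (0.47 to 0.75, counting error). Cd28, the co-stimulatory receptor, stood at 236 and 403 CPM (-0.77). Of 14 measured naive and homing genes 11 were higher and 3 lower (median 0.24), against 51.0% higher over all measured genes. Bcl2 stood at 184 and 99.7 CPM (0.88), Il7r at 219 and 126 CPM (0.79) and Tcf7 at 199 and 232 CPM (-0.22). Of 8 measured memory and follicular helper genes 3 were higher and 5 lower. Cxcr6 had the largest ratio of them (1.51), and Icos (-0.76), Maf (-0.72) and Slamf6 (-0.70) were on the lower side. Icos and Maf were lower in other T cells too (-0.72 and -0.63).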
